A study of Mus musculus with 6 samples.

Results

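The doublecortin gene family of the mouse was examined in sorted ileal tuft cells through 5 genes, Dclk1, Dclk2, Dclk3, Dcx and Dcdc2a, which were chosen by name for their doublecortin domains and were all found among the 23420 genes of the expression table. RNA had been sequenced in 6 libraries, each labelled as a mouse replicate, which form 1 group. The mice were C57BL/6J animals of 6 to 12 weeks with 1 allele of Gfi1b carrying eGFP, and neither treatment nor infection is given for these samples. Live ileal epithelial cells had been gated on GFP and EpCam, with cells bearing CD45 left out, so the gate rests on the promoter of the transcription factor gene Gfi1b and not on Dclk1, and all libraries share the reporter allele. GFP-negative epithelium was not analysed here, and the values therefore describe levels within tuft cell libraries and no enrichment over other cells. The values are TPM, a share of transcripts corrected for transcript length and scaled to a sum of 1000000 per library, so that genes can be set side by side within a library.

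Doublecortin domains are folds that bind microtubules between their protofilaments and stabilise them. Dcx, the founding gene, encodes doublecortin of migrating neurons, and Dclk1 and Dclk2 join a pair of doublecortin domains to a serine/threonine kinase domain related to those of the calcium/calmodulin-dependent kinases. Dclk3 encodes a further kinase of this family, and Dcdc2a encodes a protein of the primary cilium with doublecortin domains and no kinase domain. In the mouse intestine, antibody to DCLK1 is a standard stain for tuft cells.

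Dclk1 (ENSMUSG00000027797.15) spans bases 55242364 to 55539068 of chromosome 3 (GRCm38, plus strand), and Dclk2 (ENSMUSG00000028078.14) lies on the minus strand of the same chromosome from 86786151 to 86920852. Dclk3 is on chromosome 9 (111439081 to 111489118, plus strand), Dcdc2a on chromosome 13 (25056004 to 25210706, plus strand) and Dcx on chromosome X (143855842 to 143933311, minus strand). Dclk1 has 15 annotated transcripts, of which 3 begin within 500 bases of an upstream start and 7 within 500 bases of a downstream start 219364 bases further on, while 5 begin elsewhere. Transcripts from the upstream start encode the form with doublecortin domains, and the known products of the downstream start are shorter and lack them. Of the exon bases of the gene, 1718 lie before the downstream start and 13578 from it on. The deposited values are given per gene and sum these forms, so their shares were not measured.

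The 250 bases before each of the annotated starts of Dclk1, and before that of Dclk2, its closest relative in domain layout, are shown. Dclk1 and Dclk2 were the most and the next most abundant of the 5 genes, and which Dclk1 start was in use was not measured. The sequences are from RefSeq (GRCm38.p6), written 5′ to 3′ on the strand of the gene, with CpG dinucleotides in capitals.
Dclk1 upstream start, chr3:55242114-55242363, plus strand: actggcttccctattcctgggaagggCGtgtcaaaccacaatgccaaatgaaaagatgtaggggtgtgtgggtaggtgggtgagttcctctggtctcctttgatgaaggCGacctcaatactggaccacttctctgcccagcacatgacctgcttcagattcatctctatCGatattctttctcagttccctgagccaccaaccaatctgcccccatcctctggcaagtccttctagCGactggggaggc
Dclk1 downstream start, chr3:55461478-55461727, plus strand: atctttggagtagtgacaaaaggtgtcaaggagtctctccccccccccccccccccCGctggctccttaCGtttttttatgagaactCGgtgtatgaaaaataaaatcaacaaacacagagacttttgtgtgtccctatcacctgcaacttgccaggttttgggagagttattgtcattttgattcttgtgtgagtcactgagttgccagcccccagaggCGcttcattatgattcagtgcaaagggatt
Dclk2, chr3:86920885-86921134, minus strand: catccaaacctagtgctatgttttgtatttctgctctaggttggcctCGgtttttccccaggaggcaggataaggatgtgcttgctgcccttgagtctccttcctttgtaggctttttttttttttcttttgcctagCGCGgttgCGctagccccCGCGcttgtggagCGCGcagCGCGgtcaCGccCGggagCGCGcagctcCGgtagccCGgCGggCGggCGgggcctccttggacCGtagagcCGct
Both Dclk1 windows held 4 CpG, fewer than the median of 6 over 32851 promoter windows of the same length, whereas the Dclk2 window held 21, more than 83.7% of them. The GC content was 52.4% before the upstream start and 46.8% before the downstream start of Dclk1, and 60.0% before Dclk2. The octamer ATGCAAAT, searched on both strands and present in 1.60% of all windows, matched in none of these 3 windows, and the same held for TATAAA, present in 12.4%. That says only that these letters are absent from the windows.

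Dclk1 was abundant in every library. Replicates 1 to 6 had 820.6, 762.5, 537.9, 586.6, 511.1 and 551.3 TPM of Dclk1, and the mean was 628.3 ± 130 TPM (SD, n = 6). Replicates 1 and 2 were highest and the other 4 libraries lay between 511.1 and 586.6 TPM. By mean TPM, Dclk1 ranked 192nd of all genes in the table, and in single libraries its rank ran from 133 to 244. It thus lay among the top 1.01% to 1.84% of the genes listed above 0. The genes next above it by mean were Akr1a1, an aldo-keto reductase (632.3 TPM), Fabp2, the intestinal fatty acid binding protein (631.0 TPM), and Atp5h, a subunit of mitochondrial ATP synthase (630.4 TPM). Next below were the ribosomal genes Rpl36 (627.9 TPM) and Rps27a (625.5 TPM) and the uroguanylin gene Guca2b (624.1 TPM). In bulk libraries such as these, a smaller share of tuft cells and less Dclk1 RNA per cell cannot be told apart.

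The relatives of Dclk1 were at low levels, and Dcx and Dcdc2a were near the floor of the table. No library had Dclk2 at 0, and replicates 1 to 6 had 6.10, 1.38, 1.69, 3.64, 5.44 and 0.45 TPM of it. Its mean was 3.12 ± 2.31 TPM (SD, n = 6), and its highest library, replicate 1, was 13.6 times its lowest, replicate 6. Dclk3 stood at 0 in replicates 1 and 6, while replicates 2, 3, 4 and 5 had 0.37, 0.54, 2.39 and 3.72 TPM, so that its highest values were in other libraries than those of Dclk1. Its mean was 1.17 ± 1.53 TPM (SD, n = 6), and 0.66 TPM without replicate 5. Dcx was above 0 in 5 of 6 libraries but never over 0.07 TPM, and its median was 0.02 TPM. Dcdc2a was listed at 0.03 TPM in replicate 4 and at 0 in the other 5 libraries.

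**Figure D1:**
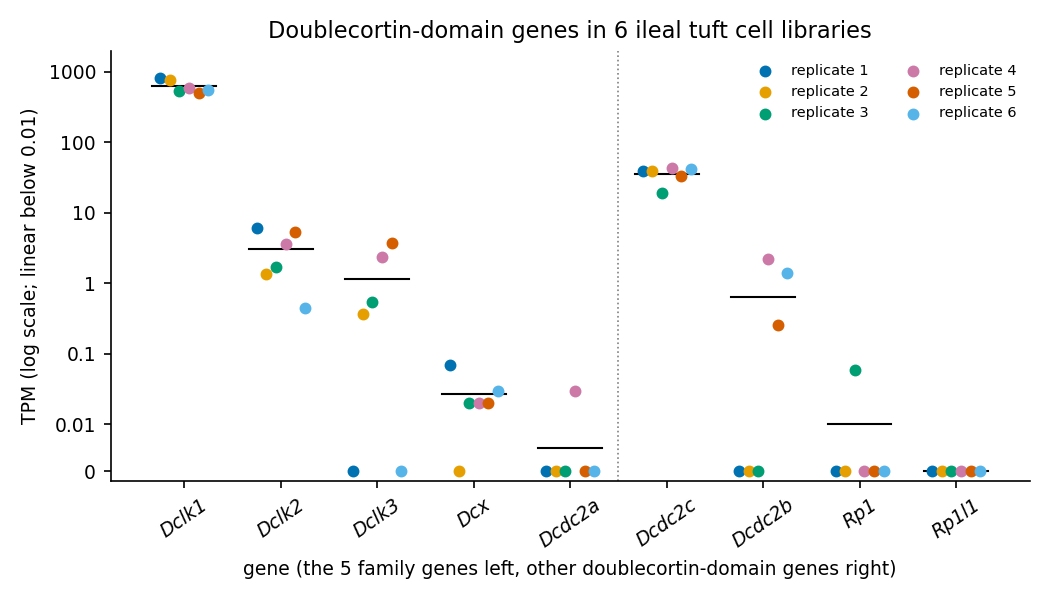
TPM (log scale, linear below 0.01) of the 9 doublecortin-domain genes found in the table, with 1 coloured point per library and a black bar at the mean of 6 libraries. Dclk1 lies between 511.1 and 820.6 TPM in every library, Dcdc2c between 19.5 and 43.3 TPM, and each of the other genes at or below 6.10 TPM.

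Dclk1 made up nearly the whole of the summed level of the 5 genes, at 98.2% to 99.9% of their TPM per library and 99.3% ± 0.619 on average (SD, n = 6). Its TPM was 55.7 to 1149 times the sum of its relatives there (median 186.0). That ratio was lowest in replicate 5, where Dclk2 and Dclk3 were both high, and highest in replicate 6, where the relatives together had 0.48 TPM. Dclk2 was the most abundant relative in all 6 libraries and held 59.3% to 98.9% of the relatives' sum. Against Dclk2 alone, Dclk1 was 93.9 to 1225 times as abundant.

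The question whether Dclk1 exceeded each relative within a library was put on the log2(TPM + 1) scale, which compresses differences among genes near 0. Dclk1 exceeded Dclk2 by 7.45 ± 0.887, Dclk3 by 8.43 ± 1.12, Dcx by 9.24 ± 0.275 and Dcdc2a by 9.27 ± 0.288 (SD, n = 6), in 6 of 6 libraries each. An exact permutation test that flips the signs of the 6 differences (two-sided) gave p = 0.03125 for each of the 4 genes, the smallest that 6 libraries allow, and an adjusted p of 0.0316 when Dclk1 was tested against all 15706 other genes listed above 0 in at least 1 library. With the same test, 98.2% of those genes lay below Dclk1 and 0.675% (106 genes) above it. The count of 4 of 4 relatives below Dclk1 is thus near that background, and the family is better described by the size of the gap. The median gap was 8.83 over the 4 relatives and 6.32 over all genes tested, on the log2 scale.

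Among the relatives the order of the means was Dclk2, Dclk3, Dcx and Dcdc2a, and since this order was read from the values, neighbours were compared without a test. Dclk2 exceeded Dclk3 in 6 of 6 libraries, by 0.98 ± 0.920 on the log2(TPM + 1) scale (SD, n = 6), a difference about as large as its spread. Dclk3 exceeded Dcx in 4 of 6 libraries, by 0.81 ± 0.952, which was within the spread. Dcx and Dcdc2a differed by 0.03 ± 0.0389, also within the spread. Over all genes tested, 35.6% had a lower mean log2 level than Dclk2 and 24.5% a lower one than Dclk3, against 98.8% for Dclk1. Among the stretches of 25 bases compared, none was shared between annotated transcripts of Dclk1 and those of the other 8 doublecortin-domain genes. Only part of all stretches was compared, for example 1800 for Dclk3, whose 1 transcript has 3005 bases. A shared stretch could thus have been missed. On the opposite strand, 114 exon bases of Dclk1 overlap exons of Gm21954 and Gm42609, and the strand setting of the counting is not given in the sources used here.

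A wider list of 11 doublecortin-domain genes, of which 9 were found in the table, added 1 gene with a clear level. Dcdc2c (chromosome 12 of GRCm38, 28437795 to 28552399, minus strand) encodes a doublecortin-domain protein without a kinase domain. Replicates 1 to 6 had 39.6, 39.3, 19.5, 43.3, 33.3 and 42.0 TPM of it, on average 36.2 ± 8.87 TPM (SD, n = 6). Replicate 3 was the lowest and the other 5 libraries lay between 33.3 and 43.3 TPM. Dcdc2c exceeded Dclk2, the next in order, in 6 of 6 libraries by 3.35 ± 0.966 on the log2 scale, and lay below Dclk1 in 6 of 6 libraries by 4.10 ± 0.402 (exact sign-flip permutation test over all genes, adjusted p = 0.0316). Dclk1 was 13.1 to 27.6 times as abundant as Dcdc2c, which itself stood above 82.5% of the genes tested. Dcdc2b stood at 0 in replicates 1, 2 and 3, while replicates 4, 5 and 6 had 2.20, 0.26 and 1.42 TPM. It shares 18 exon bases with Tmem234 on the opposite strand, a gene at 175.8 TPM. Whether this overlap affects the Dcdc2b values was not tested. Rp1, a microtubule gene of photoreceptors, was listed at 0.06 TPM in replicate 3 and at 0 elsewhere, and its relative Rp1l1 at 0 in all 6 libraries. Of the 7 genes of this list that could be tested, 7 were below Dclk1, against the background of 98.2%.

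The spread of Dclk1 between libraries was ordinary for its level. Its coefficient of variation was 20.7%, its highest library was 1.61 times its lowest, and the range was 0.68 on the log2(TPM + 1) scale. Among 289 genes whose mean lay within 2-fold of that of Dclk1, the median coefficient of variation was 23.5%, and 38.1% of these genes varied less than Dclk1. After rescaling the libraries by median-of-ratios factors, the coefficient of variation of Dclk1 was 15.8% and 26.1% of the genes of similar level varied less, and after rescaling without Rn45s, the ribosomal RNA precursor, the figures were 18.1% and 32.8%. Replicates 1 and 2 had the highest Dclk1 under both rescalings as well. The relatives varied more in relative terms, with coefficients of variation of 74.2% for Dclk2 and 131% for Dclk3. As TPM keeps no sequencing depth, the part of counting error in those values is unknown.

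**Figure D2:**
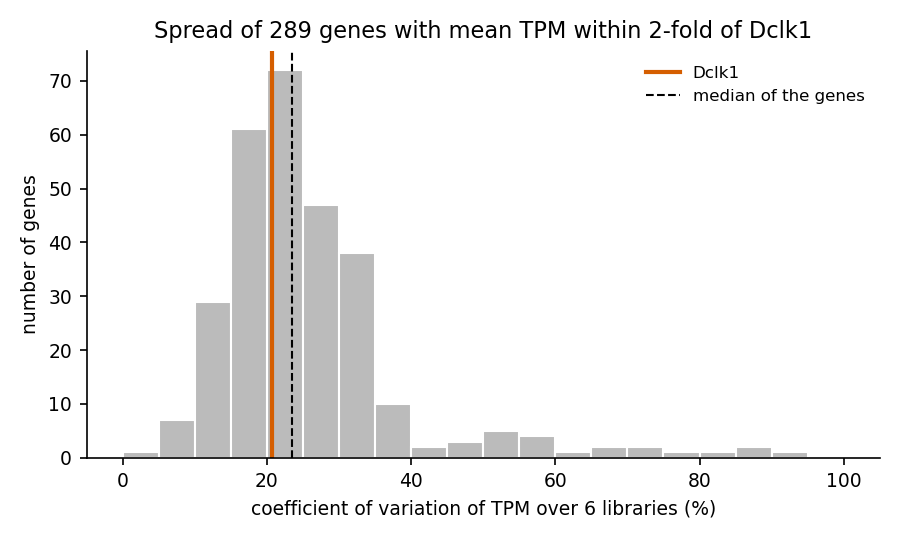
Histogram of the coefficient of variation of TPM over 6 libraries (%) for the 289 genes with mean TPM within 2-fold of Dclk1, with the number of genes on the vertical axis. The orange line marks Dclk1 at 20.7%, a little below the dashed median of 23.5%.

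Dclk1 varied between libraries together with other genes known as tuft cell markers. Of 18 such genes, 17 were found in the table, Siglecf under its older symbol Siglec5, and all 17 were listed above 0 in every library. Against the other 16, among them Cd24a (6578 TPM) and the taste channel gene Trpm5 (1141 TPM), Dclk1 was below 5 and above 10 past an adjusted p of 0.05 in the sign-flip test, whereas over all genes 0.675% lay above Dclk1 and 98.2% below it. Avil, which encodes the actin-binding protein advillin, did not pass: its mean was 584.2 ± 164 TPM (SD, n = 6), Dclk1 was higher in 5 of 6 libraries, and the ratio of Dclk1 to Avil ran from 0.993 to 1.27. For all 16 markers, the ratio of Dclk1 to the marker had a smaller coefficient of variation than the marker itself, and for 11 of 16 it was smaller than that of Dclk1. Over the 6936 genes that averaged 10 TPM or more with no library at 0, the corresponding shares were 38.8% and 17.7%. Among the tighter ratios were those to Siglec5, with a coefficient of variation of 8.99%, to Ptgs1, the gene of cyclooxygenase 1, at 9.55% and to Avil at 9.96%. The loosest were the ratios to Chat, the gene of choline acetyltransferase, at 28.7% and to Gnat3, the gene of gustducin, at 27.0%. Across the 6 libraries, Pearson's r of Dclk1 with the 16 markers on the log2 scale was lowest for Chat, at 0.405, with a median of 0.894. Over the 6985 genes that averaged 10 TPM or more, the median r was 0.241. These are descriptions over 6 points that share library scaling. Dclk1 was highest in replicates 1 and 2, as were all markers but Il25, Chat, Gnat3 and Il17rb. The r values therefore rest largely on replicates 1 and 2, and r of the markers without them was not computed.

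**Figure D3:**
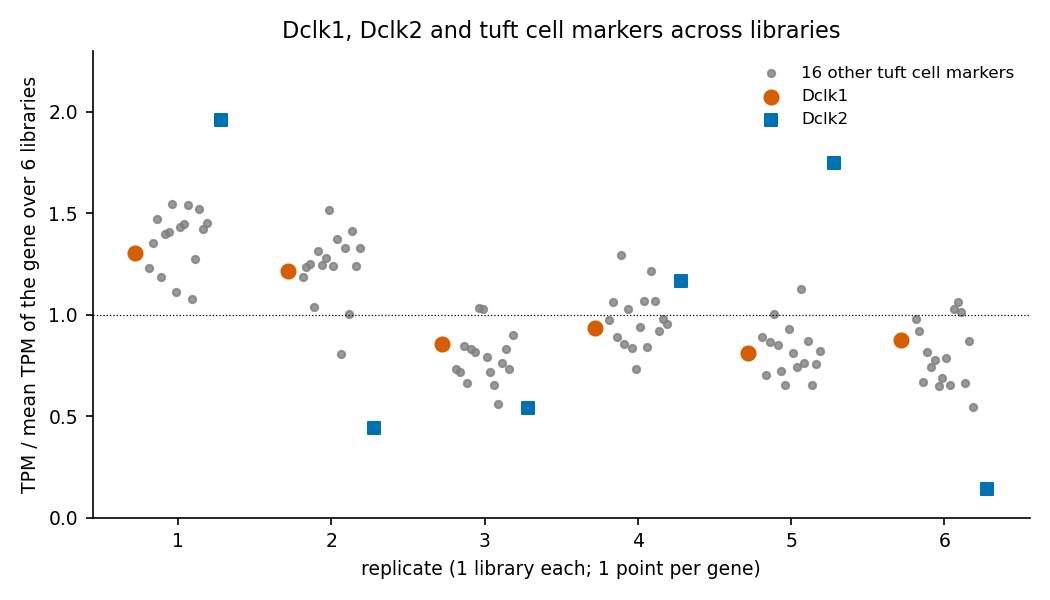
TPM divided by the mean of the gene over 6 libraries (vertical axis) in replicates 1 to 6 (horizontal axis), with 1 grey point per other tuft cell marker (16 genes), orange circles for Dclk1 and blue squares for Dclk2. Dclk1 is above its mean in replicates 1 and 2 and below it in replicates 3 to 6, within the range of the markers in each library, while Dclk2 is highest in replicates 1 and 5.

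Transcripts used as markers of other cells were summed per library and set beside Dclk1, and several of these sums rested on 1 gene, so each is also given without its most abundant gene, an alternative chosen after the data were seen. The sum of 7 goblet cell genes ran from 1053 to 5118 TPM, lowest in replicates 1 and 2, with r = -0.867 against Dclk1 over the 6 libraries on the log2 scale and r = -0.902 without Zg16, and 6 of its 7 genes had r below 0. The sum of 8 enterocyte genes ran from 5855 to 14822 TPM with r = 0.938, but Fabp1 made up 65.0% to 88.3% of it. Without Fabp1, the other 7 genes summed to 814.0 to 3067 TPM, highest in replicates 4 and 5, and r was 0.0586. The sum of 6 leukocyte genes (241.5 to 488.5 TPM) had r = -0.822, and r turned to 0.980 without Cd74, which was lowest in replicates 1 and 2. The other 5 genes summed to 88.3 to 185.5 TPM, mostly from Ptprc, so that value rests on 1 gene again. Of the 6 genes, 4 had r above 0 and 2 below. Ptprc, which encodes CD45, the antigen used to leave leukocytes out of the gate, was at 170.9, 156.3, 84.5, 110.5, 77.4 and 74.2 TPM in replicates 1 to 6, so it was highest in the libraries where Dclk1 was highest. Which cells the transcripts of the leukocyte list came from was not tested. Sums of 10 enteroendocrine genes (385.6 to 531.1 TPM) and 6 stem cell genes (325.0 to 783.7 TPM) had r = -0.123 and 0.597, and r = -0.729 and 0.822 without Sct and Olfm4. For 7 Paneth cell genes (3931 to 25394 TPM) r was -0.398, and -0.350 without Defa24. The 16 other tuft cell markers summed to 11722 to 22841 TPM with r = 0.984, and r was 0.988 without Cd24a. The part of these genes in the spread of Dclk1 was not tested. The most abundant enterocyte gene, Fabp1 (7410 TPM), is also the only one of its list above Dclk1 in 6 of 6 libraries, while Apoa1 (940.6 TPM) and Fabp2 did not pass the test against Dclk1 in either direction.

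The genes whose pattern across libraries was most like that of Dclk1 were drawn from 6985 others whose mean reached 10 TPM. The 10 highest by Pearson's r on the log2(TPM + 1) scale over 6 libraries were Car7, a carbonic anhydrase gene, Tmem229b, Itih5, the phospholipase gene Pnpla6, Ly6g6d, Tm4sf4, Gm14440, the histone gene Hist1h2bc, Ms4a8a and Sgsm3, with r from 0.986 to 0.996. Car7, with r = 0.996, was measured at 192.2, 163.8, 62.9, 69.3, 50.8 and 64.3 TPM in replicates 1 to 6, again highest in replicates 1 and 2. Tm4sf4 was the most abundant of the 10, at 1897 to 5662 TPM, and Ms4a8a (538.8 to 1018 TPM) was nearest to Dclk1 in level. For 9 of these genes the spread on the log2 scale was larger than that of Dclk1, by 1.33 to 3.57 times, and for Ly6g6d it was 0.902 times as large. A high r was not rare, since 268 of the 6985 genes (3.84%) were above 0.9. These values rest on replicates 1 and 2, the libraries farthest from the median of Dclk1, without which r of the 10 genes fell to between 0.790 and 0.968.

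Kinases related to the DCLK kinase domain were present at lower levels than Dclk1. Of 20 genes of calcium/calmodulin-dependent kinases and their relatives, 18 were tested and 18 lay below Dclk1, against the background of 98.2%, with a median gap of 5.97 on the log2 scale beside 6.32 over all genes. Camk2b and Camk2d, which encode subunits of CaMKII, were the most abundant, at 84.6 ± 19.0 and 53.8 ± 16.8 TPM (SD, n = 6). Camkk1, an upstream activating kinase of this family, followed at 27.6 ± 6.98 TPM. Camk2a, the subunit gene typical of forebrain neurons, was at 3.59 ± 3.13 TPM, and Camk1g and Camkv were listed at 0 in all libraries.

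Of 17 genes for regulators and partners of doublecortin, 15 were tested and 15 were below Dclk1, against the background of 98.2%, with a median gap of 5.85 on the log2 scale beside 6.32 over all genes. L1cam, a cell adhesion molecule of neurons and some epithelia, led this list at 113.6 ± 17.0 TPM, and its values in the 6 libraries ran from 94.7 to 140.4 TPM. Mark2, a kinase that phosphorylates microtubule-associated proteins, was at 45.2 ± 8.70 TPM, and Prkaca, the catalytic subunit gene of protein kinase A, was at 24.8 ± 8.72 TPM (SD, n = 6 each). Cdk5 was at 12.1 ± 3.29 TPM, whereas its neuronal activators were nearly absent, with Cdk5r1 never above 0.26 TPM and Cdk5r2 listed at 0 in all libraries.

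Of 26 genes for microtubule-associated proteins, motors and neuronal migration, 24 were tested and 24 were below Dclk1, against the background of 98.2%, with a median gap of 5.87 on the log2 scale beside 6.32 over all genes. The kinesin heavy chain gene Kif5b (77.5 ± 7.33 TPM), the stathmin gene Stmn1 (70.5 ± 25.6 TPM) and Camsap3, whose product binds microtubule minus ends (36.2 ± 7.58 TPM), were the most abundant (SD, n = 6 each). Pafah1b1, which encodes LIS1 and is, like Dcx, a lissencephaly gene, was at 15.5 ± 2.96 TPM. Members known from neurons ranged widely: Map1a was at 17.3 ± 2.76 TPM and Map2 at 5.26 ± 2.18 TPM, both above 0 in every library, Mapt ran from 0 to 2.16 TPM, Kif1a was above 0 in replicate 6 alone at 0.11 TPM, and Stmn2 and Stmn3 were listed at 0 in all libraries.

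Markers of neurons and enteric glia, cells in which Dcx, Dclk1 and Dclk2 could also be found, were low. Of 12 neuron genes, 5 were listed at 0 in all libraries, including Elavl4 and Gap43, and the 12 together had 0.21 to 16.7 TPM per library, mostly from the neurofilament gene Nefl (3.98 TPM on average) and from Prph (3.03 TPM), followed by Ret (0.543 TPM). Of 5 glia genes, 3 were listed at 0 in all libraries, including S100b, and Sox10 (1.35 TPM) and Gfap (0.96 TPM) were above 0 in replicate 3 alone. Of the 7 neuron and 2 glia genes that were tested, 7 and 2 lay below Dclk1, against the background of 98.2%. The sum of the neuron genes was 6.98, 16.7, 3.11, 8.38, 0.21 and 10.95 TPM in replicates 1 to 6. Dclk2 was at 6.10, 1.38, 1.69, 3.64, 5.44 and 0.45 TPM in the same libraries. The part of neurons in the values of Dclk2 was not tested.

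**Figure D4:**
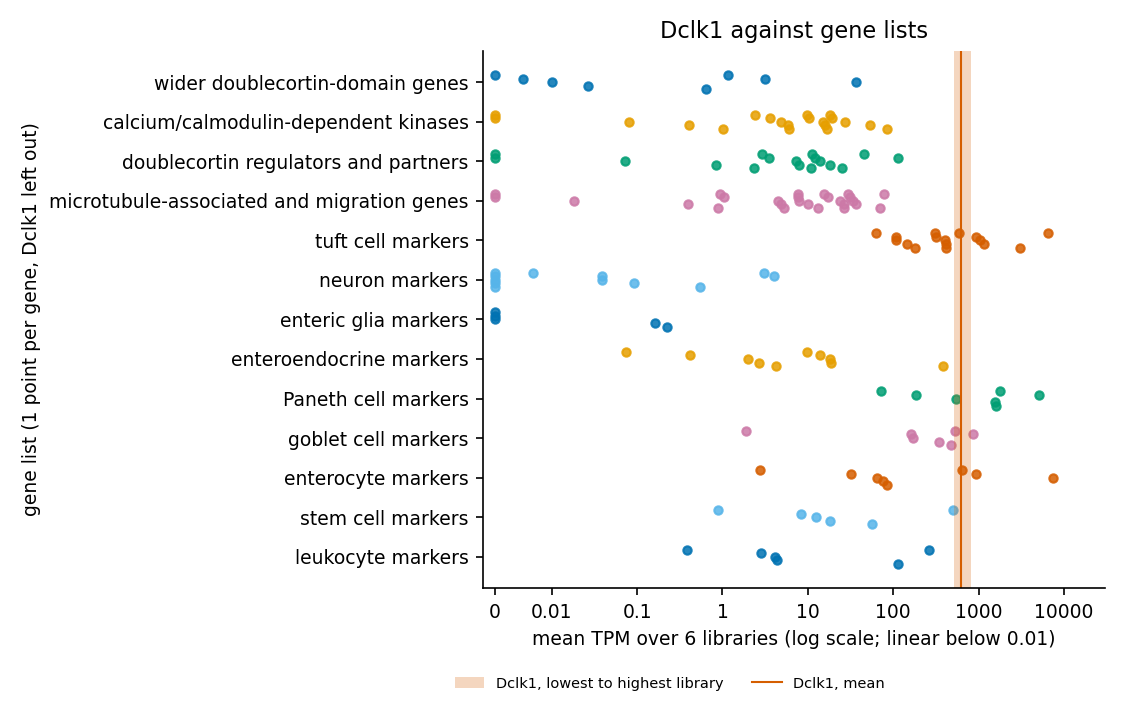
Mean TPM over 6 libraries (horizontal axis, log scale and linear below 0.01) of the genes of 13 lists, with 1 point per gene and Dclk1 left out. The vertical orange line is the mean of Dclk1, 628.3 TPM, and the band spans its lowest and highest library, so that kinase, doublecortin and microtubule genes lie to the left and a few tuft, Paneth, goblet and enterocyte genes lie on or to the right of it.

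Of the other epithelial lists, the genes above Dclk1 past the threshold were Defa24 (5147 TPM) among Paneth cell genes and Fabp1 among enterocyte genes. Defa17 (1787 TPM), Gm15284, the older symbol of Defa30 (1601 TPM), and Lyz1 (1537 TPM) had higher means than Dclk1 but did not pass. Reads may be shared between alpha-defensin genes, to which Lyz1 does not belong. The goblet cell genes Zg16 (848.3 TPM) and Tff3 (532.2 TPM) and Spink4 (469.8 TPM) did not pass either. Sct, the secretin gene, was the leading enteroendocrine gene at 383.8 TPM, ahead of Sst (18.5 TPM) and Gcg (18.2 TPM), and lay below Dclk1. Among stem cell genes, Olfm4 (501.4 TPM) did not pass, and Lgr5 (57.1 TPM) and Slc12a2 (18.2 TPM) were below Dclk1. Cd74 (261.6 TPM), Ptprc (112.3 TPM) and Cd3e (4.38 TPM) of the leukocyte list were below it as well. The libraries held 13044 to 13308 genes above 0, no pair was identical, and Rn45s took 23.1% to 32.6% of the TPM.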

How the data were processed

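RNA of sorted ileal tuft cells from 6 mice was amplified over 18 cycles with a modified SMART-Seq2 protocol (per the methods; the labels also name a 3' polyA and a droplet preparation). The authors aligned paired-end reads with Bowtie to the UCSC mm10 transcriptome and deposited TPM per gene from RSEM v1.2.3, with 2 decimals. RSEM divides reads with several alignments. The submitters' processing notes also name TopHat, with no role given, and DESeq2, the authors' tool for differential expression, which needs counts and was not run here. TPM keeps no depth, so no counting interval was computed. Whether the replicates come from separate animals is given only by their labels, and p-values take these libraries as units. Where all differences share a sign, the p of the sign-flip test does not depend on their size or spread.

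Dclk1 was compared with every other gene listed above 0 in at least 1 library through an exact permutation test (two-sided, flipping signs) of the within-library difference in log2(TPM + 1) over 64 assignments, with Benjamini-Hochberg adjustment over 15706 genes and a threshold of 0.05. The methods name the Mann-Whitney test, which was run as an alternative. Gene models came from GENCODE M21 on GRCm38, the same assembly as mm10 but not the authors' gene models, and promoters from RefSeq (6 of the 9 doublecortin-domain genes matched).

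The genes, lists and tests were chosen with earlier results of these data known. Named were the 5 genes, the wider doublecortin-domain list, the 3 most abundant genes of each list, 3 neighbours of Dclk1 on either side by mean TPM and the 10 genes most like it. Genes named outside this rule, such as Camk2a, Cdk5, Pafah1b1, Map1a, Chat, Lyz1, Tmem234 and Gm20594, were chosen after their values were seen. Some genes of the lists are counted but not reported by name here. Symbols were looked up among RefSeq synonyms, and Dcdc1, Dcdc5 and Sh2d6 were not matched. The test was checked on simulated data. Scripts ran in Python 3.11.15 with scipy 1.17.1, pandas 2.3.3, numpy 2.4.6 and, for plots, matplotlib 3.10.9.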

Additional observations from a re-analysis of the deposited data

Results flagged for a closer look

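By Dixon's test, 4 of 44 measures had a single library set apart from the other 5. Chance does this in about 1 of 20 groups of normally distributed values. That rate does not carry over to measures that share genes or stand at 0 in most libraries. Where all other libraries are at 0, any value above 0 is flagged by construction. Dcdc2a was at 0.03 TPM in replicate 4 and Rp1 at 0.06 TPM in replicate 3, with 0 in all other libraries, values near the last decimal of the table. The enteric glia genes summed to 2.31 TPM in replicate 3 and to 0 elsewhere. The ratio of Dclk1 to Spib, the gene of an Ets transcription factor, was 2.43 in replicate 6 and 1.36 to 1.495 in the others, and without replicate 6 its mean went from 1.60 to 1.43.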

How the results depend on the processing

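Of 149 values recomputed under alternatives, 0 reversed and 13 moved. The other 136 kept direction and side of the threshold where there was a test, stayed within 1 SD where there was none, or within 1.5 times for counts. Dclk1 lay above each relative under every alternative run. Both genes of a library get the same scaling and pseudocount, which cannot change that order, and with 6 of 6 libraries the p follows from the signs alone. With a pseudocount of 0.01 the differences grew to 8.10 (Dclk2), 11.34 (Dclk3), 14.29 (Dcx) and 15.58 (Dcdc2a) on the log2 scale. With the exact Mann-Whitney test, which ignores that genes share a library, was 0.00216 for each relative (adjusted p = 0.0022 over all genes), with 15436 genes below and 110 above Dclk1. With each library left out in turn, as values without a test, the differences lay between 7.22 and 7.68 (Dclk2), 8.18 and 8.76 (Dclk3), 9.17 and 9.29 (Dcx) and 9.18 and 9.32 (Dcdc2a), the mean of Dclk1 between 589.9 and 651.8 TPM, and the genes below and above it in all 5 libraries between 15429 and 15471 and between 106 and 135.

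Rescaling without Rn45s moved the mean of Dclk1 from 628.3 to 863.3 TPM, as it raises every value by construction. Setting values under 0.1 TPM to 0 took Dcx from 0.0267 to 0 TPM, and with each library left out in turn its mean was 0.018 to 0.032 TPM. The mean of Dclk3 was 0.66 TPM without replicate 5, and that of Dcdc2a was 0 without replicate 4. The 10 genes most like Dclk1 were the least stable result. Spearman's rho kept 1 of the 10, but over 6 libraries rho ties many genes. All 10 had rho of 0.943 to 1.0 and lay within rank 43 of 6985, so that count depends on the order of ties. Of the 10, 4 were kept after median-of-ratios rescaling, 5 after rescaling without Rn45s, 8 with a minimum mean of 1 TPM and 3 to 6 with a library left out. Among alternatives chosen after the data were seen, 2 were kept after centring within replicates 1 to 3 and 4 to 6, and 0 without replicates 1 and 2. Replicates 1 to 3 and 4 to 6 differ in Gm20594 (15588 to 21283 TPM against 51804 to 56441 TPM). No paired comparison of groups was possible because the libraries form 1 group, and pairing was used only between genes of the same library. Since TPM keeps no depth, the zeros of Dclk3, Dcx and Dcdc2a carry no detection limit.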
